A study of Mus musculus with 6 samples.

Results

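The 2 arrays numbered 3 in this series, WT 3 and Selp-/- 3, were set against the 4 arrays numbered 1 and 2, out of 6 arrays in all. They were taken by the number that ends their title, and this split was selected on the same measured values, because both arrays were already known to stand apart. The size of the difference is therefore given below as a description, with no test. Every array was hybridized with total RNA of hematopoietic stem cells (HSC), which renew themselves in the bone marrow and give rise to the whole of the blood. Arrays WT 1 to 3 came from wild-type mice and arrays Selp-/- 1 to 3 from mice without Selp, which encodes P-selectin, an adhesion receptor of platelets and endothelium, all of strain C57BL/6. The study compared the genotypes to learn how P-selectin acts on HSC. No treatment, time point or age distinguished the arrays, and the labels state neither how the cells were sorted nor whether replicates were separate mice or 1 RNA measured again. All 6 arrays are labelled HSC, and on the arrays numbered 3 the stem cell genes Hlf and Mecom were lower, and genes of mature granule cells higher, than on the other 4. Selp itself had no named probe set, so the genotype labels were not checked by the deleted gene.

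HSC sit at the top of blood formation and keep a programme of transcription factors, among them HLF, MECOM and MEIS1, that fades as cells commit to a lineage. Multipotent progenitors next in line carry the receptor FLT3 and, where they lean towards lymphocytes, the enzyme DNTT. Basophils and mast cells are granule-filled cells that bind IgE through the receptor FcεRI and store histamine and serine proteases. Neutrophils, monocytes and macrophages carry their own granule proteins, chemokine receptors and lysosomal enzymes. In most mouse HSC preparations, cells with surface antigens of neutrophils and monocytes are removed before RNA is taken.

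The proximal promoters of 4 granule cell genes are shown because these genes lay among the higher ones on both arrays numbered 3 and GATA factors are known regulators of basophil and mast cell genes. The 4 are examples and not typical: of 16 sequences of the higher basophil and mast cell genes, 5 held the motif marked below. Each runs from 250 bases before to 50 bases after the start of transcription (RefSeq, GRCm38.p6), and capitals mark the motif AGATAA, searched on both strands.
Cpa3, chr3:20242132-20242431, minus strand: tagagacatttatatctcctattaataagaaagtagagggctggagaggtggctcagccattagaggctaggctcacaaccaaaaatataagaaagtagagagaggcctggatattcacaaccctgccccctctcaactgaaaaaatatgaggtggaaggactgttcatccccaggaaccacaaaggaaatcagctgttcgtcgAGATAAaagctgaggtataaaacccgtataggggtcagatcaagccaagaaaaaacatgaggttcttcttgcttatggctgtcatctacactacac
Ms4a2, chr19:11623670-11623969, minus strand: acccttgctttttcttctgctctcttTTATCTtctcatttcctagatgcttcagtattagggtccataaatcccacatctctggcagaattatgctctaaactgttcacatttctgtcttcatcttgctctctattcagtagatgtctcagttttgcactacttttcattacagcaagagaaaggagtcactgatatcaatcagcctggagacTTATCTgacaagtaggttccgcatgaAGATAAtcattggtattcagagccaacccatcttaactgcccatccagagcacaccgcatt
Prss34, chr17:25298144-25298443, plus strand: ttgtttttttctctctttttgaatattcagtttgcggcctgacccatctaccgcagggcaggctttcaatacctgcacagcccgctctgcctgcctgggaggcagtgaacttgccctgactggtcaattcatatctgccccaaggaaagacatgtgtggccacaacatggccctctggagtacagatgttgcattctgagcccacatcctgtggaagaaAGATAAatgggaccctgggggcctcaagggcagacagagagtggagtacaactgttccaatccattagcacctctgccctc
Mcpt8, chr14:56085148-56085447, minus strand: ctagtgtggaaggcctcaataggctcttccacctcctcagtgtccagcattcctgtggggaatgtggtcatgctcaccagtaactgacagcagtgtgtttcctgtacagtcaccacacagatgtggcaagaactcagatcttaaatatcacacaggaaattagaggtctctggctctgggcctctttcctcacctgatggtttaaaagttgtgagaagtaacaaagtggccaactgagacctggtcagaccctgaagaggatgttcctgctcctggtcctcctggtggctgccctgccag
Cpa3 (mast cell carboxypeptidase) held 1 match, starting 46 bases before the start site. Ms4a2 (the β chain of FcεRI) held 3, starting 224, 37 and 11 bases before it, and Prss34 (a basophil serine protease) held 1, starting 31 bases before it. The window of Mcpt8 (a basophil serine protease) held no such letters.

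The motif occurred in 9.55% of the 15612 gene promoters with a sequence in the table. It occurred in 13.1% of the 236 sequences among the 305 genes at least 2-fold higher on array 3 in both genotypes, and in 12.9% of the 132 among the 171 genes at least 2-fold lower. Of the 18 basophil and mast cell genes higher by that rule, 16 had a sequence and 5 held the motif (31.2%), namely Cd200r3, Cpa3, Fcer1a, Ms4a2 and Prss34. The letters TGTGGT, known from RUNX sites, stood in 14.3% of all promoters, 25% of the higher and 13.6% of the lower set, and in 9 of those 16 (56.2%). GAGGAA, part of PU.1 and ETS sites, stood in 27.0% of all promoters, 39.8% of the higher and 29.5% of the lower set. TTNCNNAA, a loose form of the C/EBP site, stood in 36.3%, 47.0% and 41.7% of the same sets. Of the 16 basophil and mast cell sequences, 7 held GAGGAA (43.8%) and 5 held TTNCNNAA (31.2%, below its share of all promoters). The smallest set was picked by the values of its genes, and these shares describe letters in a window, not binding.

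Both arrays numbered 3 lay far from the other 4 and close to each other. Levels here are deposited intensities after background correction and quantile normalization, on the log2 scale, so that a difference of 1 is 2-fold. WT 3 and Selp-/- 3 differed at least 2-fold from each other in 204 of 28815 probe sets (0.708%), with a correlation of levels of 0.984. Each differed from the arrays numbered 1 and 2 in 983 to 1496 probe sets over 8 pairs (3.41% to 5.19%), with correlations of 0.934 to 0.948. The other 6 pairs, within or between genotypes, differed in 137 to 235 probe sets (0.475% to 0.816%). Before normalization the median intensities were 751 in WT 3 and 713 in Selp-/- 3, against 563 to 701 in the other 4, so both medians were the highest of the series. What part of any result follows from this was not tested.

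**Figure D1:**
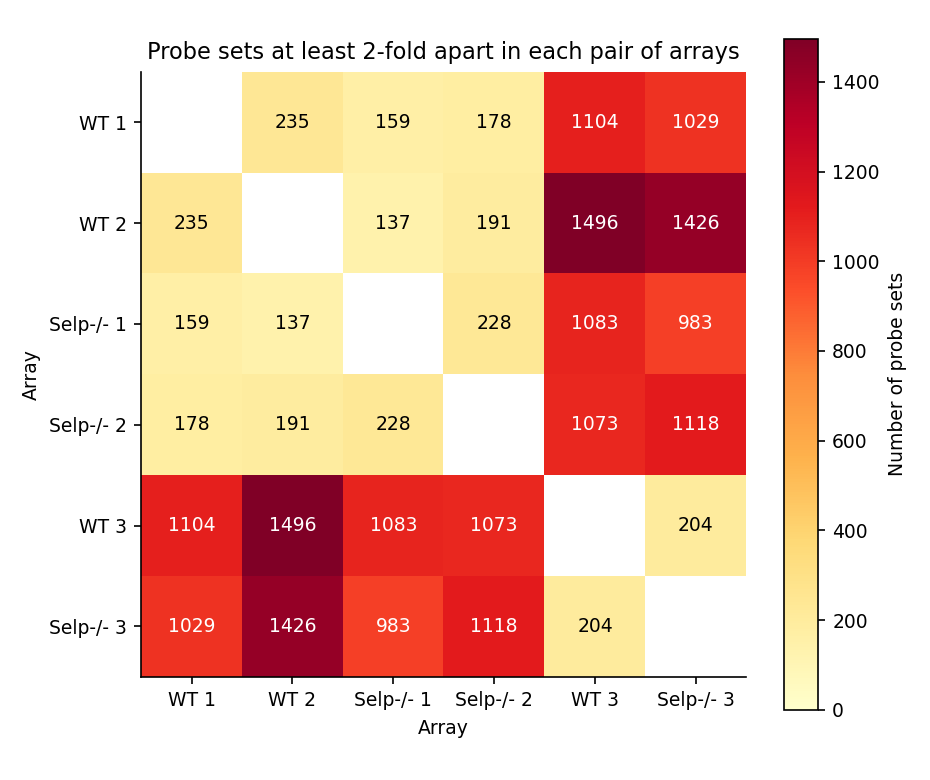
Number of probe sets, of 28815, whose normalized level differed at least 2-fold in each of the 15 pairs of arrays; rows and columns are arrays. Pairs of an array numbered 3 with an array numbered 1 or 2 hold 983 to 1496 probe sets, and the remaining pairs 137 to 235.

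In WT, 654 probe sets (2.27%) lay at least 2-fold higher on array 3 than the mean of arrays 1 and 2, and 443 (1.54%) at least 2-fold lower. The Selp-/- counts were 625 higher (2.17%) and 380 lower (1.32%). The lower count of WT varied with the reference array, and was 677 against WT 2 alone and 422 against WT 1 alone. In both genotypes 380 probe sets lay higher (1.32%) and 246 lower (0.854%). At 4-fold in both, 87 lay higher (0.302%) and 30 lower (0.104%). Among the probe sets at least 2-fold higher in WT 3, 98.0% lay higher in Selp-/- 3 by any amount and 58.1% by 2-fold, and of those 2-fold lower 97.7% lay lower and 55.5% by 2-fold. Starting from Selp-/- 3 instead, 98.2% of the 2-fold higher set lay higher in WT 3 and 60.8% by 2-fold, and 98.9% of the 2-fold lower set lay lower and 64.7% by 2-fold. Over all probe sets the direction was shared by 69.1%, and the differences of the 2 genotypes correlated at 0.755, as a description over probe sets, which are not independent replicates. Only 3 probe sets lay at least 2-fold apart in opposite directions.

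Both arrays numbered 3 lay above all 4 others in 4897 probe sets (17.0%) and below all 4 in 5770 (20.0%). Of the 380 higher and 246 lower probe sets 60.7% were higher, but with log2 intensities left without normalization the counts were 427 and 78 (84.6% higher), and the probe sets above and below all others were 10600 and 1446. That setting shifts the median of all probe sets by 0.189, while main processing leaves a median difference of 0.011 over genes. The direction of small differences therefore depends on scaling, and gene groups are described below against that median. The gene lists and their members were chosen with earlier results of these data known. Their counts beside the shares of all genes are therefore descriptions and no test.

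By gene, with each of 19935 genes read from its brightest probe set, 305 (1.53%) lay at least 2-fold higher in both genotypes and 171 (0.858%) at least 2-fold lower. In 3798 genes (19.1%) both arrays numbered 3 lay above the other 4, and in 3756 (18.8%) below. A stricter rule asked for 2-fold against each of arrays 1 and 2 separately in both genotypes, and held for 251 genes higher (1.26%) and 112 lower (0.562%). At the edge of the first rule lay Gsn, inside at 1.416 in WT and 1.001 in Selp-/-, and Dhx58, outside at 0.993 and 1.102. On the lower side Adgrl2 lay inside at -1.43 in WT and -1.0 in Selp-/-, and Gbp4 just outside at -1.059 and a value that rounds to -1.0.

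**Figure D2:**
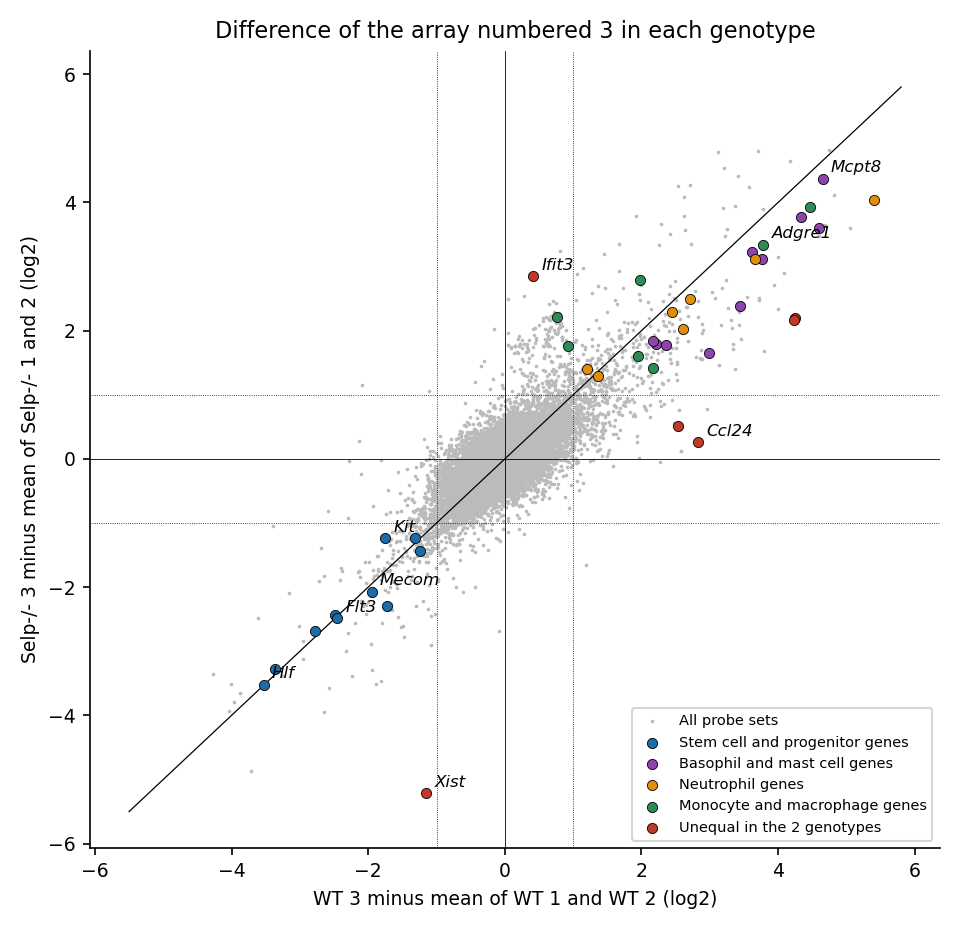
Difference of array 3 from the mean of arrays 1 and 2 (log2) in WT, x axis, and in Selp-/-, y axis; grey points are all probe sets, coloured points are named genes, dotted lines mark 2-fold and the solid diagonal marks equal differences. Stem cell genes lie along the diagonal at the lower left, with Hlf at -3.53 and -3.52, and Mcpt8 lies at the upper right with 4.65 and 4.37.

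Stem cell transcription factors lay lower on both arrays numbered 3. Hlf, a leucine zipper factor that marks HSC, stood at 12.45 and 12.37 on WT 1 and WT 2 and 8.88 on WT 3, and at 12.13, 12.53 and 8.81 on Selp-/- 1 to 3. Its difference was -3.53 ± 0.14 (SE of the fit with genotype as covariate, 2 arrays against 4), or 11.5-fold lower. The other 4 arrays lay close together, and both arrays numbered 3 lay near the 40th percentile of mean levels (8.79), below which probe sets are dim. Mecom, a zinc finger factor needed for long-term HSC, stood at 10.1, 10.11 and 8.16 in WT and 9.78, 10.38 and 8.01 in Selp-/-, a difference of -2.01 ± 0.22. A second probe set of Mecom gave -0.81, in the same direction but smaller. Meis1, a homeobox factor that works with Hoxa9, stood at 11.48, 11.88 and 9.95 in WT and 11.35, 11.9 and 9.33 in Selp-/-, with no overlap between the 2 arrays numbered 3 and the rest.

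Erg, Lmo2, Zfp521 and Hoxa5, also factors of early blood cells, had differences of -1.34, -1.48, -1.33 and -1.98. Of 38 measured stem cell transcription factors, 10 lay at least 2-fold lower in both genotypes and 0 higher, against 0.858% and 1.53% of all genes. The median of that list was -0.57, beside 0.011 over all genes. Members did not move as a block. Runx1, a factor used both in stem and in myeloid cells, lay at 12.86 on WT 3 and 12.2 on Selp-/- 3, above 11.49 to 11.76 on the other arrays. Gata2, needed in HSC and also active in basophils and mast cells, lay at 13.02 and 12.3, above 11.54 to 12.14. Tal1 had levels of 10.5 and 10.35 beside 10.24 to 10.59 elsewhere, so its groups overlapped. Among 19 Hoxa and Hoxb genes, Hoxa5 alone lay 2-fold lower in both genotypes, and the median of -0.22 turned to 0.040 without normalization.

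Of the 39 measured genes of HSC identity, 27 lay below all other arrays on both arrays numbered 3 and 4 above, beside 18.8% and 19.1% of all genes. The 10 that lay 2-fold lower in both genotypes were Angpt1, Erg, Hlf, Hoxa5, Kit, Lmo2, Mecom, Meis1, Robo4 and Sult1a1. Of these, Erg, Hlf, Hoxa5, Lmo2, Mecom and Meis1 were already counted among the stem cell transcription factors, so the counts are not separate. Angpt1, the angiopoietin made by HSC themselves, stood at 11.66, 11.9 and 9.3 in WT and 11.42, 11.88 and 9.22 in Selp-/-. Kit, the stem cell factor receptor, stood at 12.25, 12.42 and 10.58 in WT and 12.18, 12.52 and 11.11 in Selp-/-, a difference of -1.5 ± 0.2. Procr, the endothelial protein C receptor used to sort HSC, had a difference of -1.01 ± 0.27 and lay below the other arrays in both genotypes. Slamf1, the CD150 antigen, lay at 9.29 on WT 3, within the range of the other WT arrays at 9.09 and 9.41, and at 8.94 on Selp-/- 3, below its own. Vwf and Meg3 overlapped between the groups, and Socs2, a feedback inhibitor of cytokine signalling, was the only one 2-fold higher in both, with 10.95 and 10.22 on the arrays numbered 3 against 8.79 to 9.1. A second probe set of Socs2 gave 0.36. In these bulk samples fewer cells of a type and less RNA per cell cannot be told apart. Genes of basophils, mast cells, neutrophils and macrophages lay higher on the same 2 arrays, and their part in the stem cell values was not tested.

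Progenitor genes lay lower with the stem cell genes. Flt3, the receptor of multipotent progenitors, stood at 12.14, 11.92 and 9.57 in WT and 11.75, 11.93 and 9.36 in Selp-/-, 5.54-fold lower. Dntt, the terminal transferase of lymphoid-primed cells, stood at 11.17, 11.49 and 7.96 in WT and 11.1, 11.45 and 8.0 in Selp-/-. Cd27, a receptor found on short-lived and lymphoid-primed progenitors as well as on HSC, had a difference of -2.73 ± 0.11. In this list 7 of 18 genes lay 2-fold lower in both genotypes and 1 higher, beside 0.858% and 1.53% of all genes. By the stricter rule 5 lay lower, beside 0.562%. The lower genes were Cd34, Satb1, Bcl11a, Sox4 and Mn1 besides Flt3 and Dntt, of which Bcl11a and Sox4 were also counted among the stem cell transcription factors. The higher one was Il7r, the interleukin 7 receptor, at 11.37 and 10.74 on the arrays numbered 3 against 8.72 to 9.54.

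Several of the lowest genes code for surface proteins shared by HSC and endothelial cells. Adgrl4, an adhesion receptor, stood at 12.81, 13.07 and 8.66 in WT and 12.78, 12.92 and 9.49 in Selp-/-, 14.1-fold lower. Calcrl, Emcn, Eng, Tie1 and Robo4 had differences of -1.94, -2.05, -1.44, -1.31 and -1.3. Of 19 endothelial genes, 4 lay 2-fold lower in both genotypes and 1 higher, beside 0.858% and 1.53% of all genes. The median was -0.07, or 0.151 without normalization, and Kdr and Cdh5, which define endothelium, had differences of -0.01 and 0.35. Stxbp4, a protein of vesicle fusion, had a difference of -3.76 ± 0.2 by its brightest probe set and -1.66 by another. In RefSeq GRCm38.p6 it is the protein-coding gene next to Hlf on chromosome 11.

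**Figure D3:**
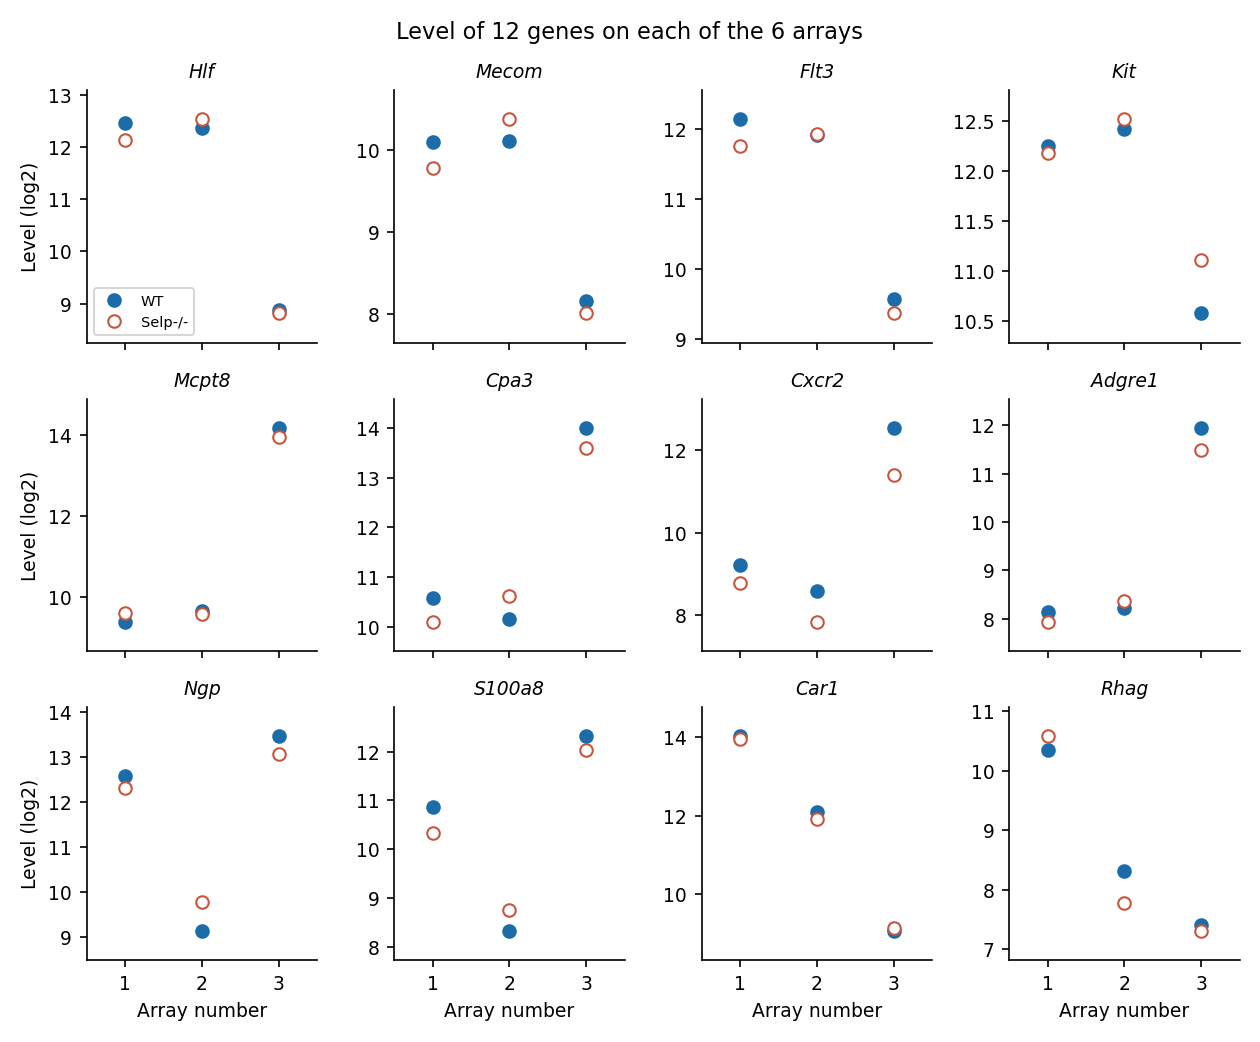
Normalized log2 level of 12 genes, y axis, on arrays 1, 2 and 3, x axis; filled points are WT and open points Selp-/-, 1 array each. The 4 genes of the top row are lower and the 4 of the middle row higher on both arrays numbered 3, while in the bottom row arrays 1 and 2 also differ from each other.

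Basophil genes lay higher on both arrays numbered 3. Mcpt8 stood at 9.38, 9.65 and 14.17 in WT and 9.6, 9.57 and 13.95 in Selp-/-, a difference of 4.51 ± 0.12, or 22.8-fold higher. Arrays 1 and 2 of both genotypes lay close together (SD 0.11, n = 4), far from both arrays numbered 3. Prss34 stood at 9.52, 8.96 and 13.01 in WT and 9.25, 9.76 and 12.62 in Selp-/-. Gzmb, granzyme B, which basophils make as well as killer lymphocytes, lay 16.6-fold higher. Cyp11a1, the enzyme that opens steroid synthesis from cholesterol, stood at 8.03, 8.02 and 12.63 in WT and 8.01, 8.29 and 11.75 in Selp-/-.

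Of 23 measured basophil genes 12 lay 2-fold higher in both genotypes and 0 lower, and in 20 of 23 both arrays numbered 3 lay above the others, beside 1.53% and 19.1% of all genes. All 12 also passed the stricter rule against each single array. The median of the list was 2.0, with 2.21 in WT and 1.57 in Selp-/-. Fcer1a and Ms4a2, the IgE-binding α chain and the β chain of FcεRI, had differences of 2.0 ± 0.17 and 2.92 ± 0.32. Their partner Fcer1g, the signalling γ chain shared with other Fc receptors, stood at 10.51, 10.48 and 13.18 in WT and 10.5, 10.52 and 13.01 in Selp-/-. Hdc, which makes histamine, had a difference of 2.99 in WT and 1.65 in Selp-/-. Il6 and Cd200r3 had mean levels below the 40th percentile, yet reached 10.78 and 11.06 on WT 3. The cytokine Il13 had differences of 0.16 and 0.23 in the 2 genotypes, and its groups overlapped.

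Of 21 mast cell genes 13 lay above all other arrays on both arrays numbered 3 and 1 below, beside 19.1% and 18.8% of all genes. Cpa3 stood at 10.58, 10.17 and 14 in WT and 10.1, 10.63 and 13.59 in Selp-/-, a difference of 3.42 ± 0.26. By 2-fold in both genotypes 6 lay higher, namely Cd63, Cma1, Cpa3, Mcpt4, Tph1 and Tpsb2, and 1 (Kit) lay lower, beside 1.53% and 0.858%. Cma1, Mcpt4 and Tpsb2 are mast cell serine proteases, with differences of 2.01, 2.28 and 2.07, and Tph1, which makes serotonin, had 2.52. Kit, the growth factor receptor that mast cells keep and basophils mostly lose, has its levels above. Mitf, a mast cell transcription factor, had a difference of 0.65 by its brightest probe set and 0.06 by another, and Slc18a2, the histamine carrier, had -0.0. The median of the list was 0.63, and 10 of its 21 genes had mean levels below the 40th percentile.

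Granule and lysosomal proteases as a class lay higher, with 16 of 27 genes 2-fold higher in both genotypes, 0 lower and a median of 1.32, beside 1.53% and 0.858% of all genes. Beside the basophil and mast cell enzymes these were cathepsins (Ctsa, Ctsb, Ctsc, Ctsd, Ctss, Ctsz), Lgmn, and Ctsg and Elane of neutrophils. Among Fc receptors 6 of 14 lay 2-fold higher in both genotypes, including Fcgr2b, which stood at 9.81, 10.15 and 12.8 in WT and 10.16, 9.62 and 12.35 in Selp-/-. Tyrobp, the adaptor through which many myeloid receptors signal, had a difference of 2.27 ± 0.14. The pair Lilr4b and Lilrb4a, related receptors of myeloid and basophil cells, had the differences 4.78 ± 0.18 and 4.46 ± 0.34. Their sequences are near copies of each other, so the 2 probe sets may share signal, and the same holds for Csf2rb (2.82) and Csf2rb2 (3.41), the β chains of the interleukin 3 and GM-CSF receptors.

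Neutrophil genes lay higher too, but many of them also differed between arrays 1 and 2. Cxcr2, the chemokine receptor that draws neutrophils, stood at 9.21, 8.57 and 12.55 in WT and 8.77, 7.82 and 11.41 in Selp-/-, 10.5-fold higher. Chil3, a chitinase-like secreted protein of neutrophils and macrophages, stood at 7.93, 7.52 and 13.12 in WT and 7.81, 6.97 and 11.42 in Selp-/-. Both genes stood apart from numbers 1 and 2 alike. Ngp, a late granule protein, stood at 12.57, 9.13 and 13.46 in WT and 12.32, 9.76 and 13.06 in Selp-/-, so that arrays numbered 1 lay near arrays numbered 3. S100a8 followed the same order, at 10.87, 8.33 and 12.31 in WT and 10.34, 8.75 and 12.04 in Selp-/-.

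Over the 22 late neutrophil genes, array 1 lay above array 2 by a median of 0.55 in WT and 0.85 in Selp-/-. Of these genes 6 lay 2-fold higher in both genotypes against the mean of arrays 1 and 2, and 4 against each array (Chil3, Cxcr2, Lcn2 and S100a8), beside 1.53% and 1.26% of all genes. The median of the list was 0.84 against WT 1 and 1.46 against WT 2, and 0.54 against Selp-/- 1 and 0.98 against Selp-/- 2. Ly6g, the antigen that defines mature neutrophils, overlapped between the groups at 9.36 and 8.52 against 7.91 to 9.23. Of 14 primary granule genes 5 lay 2-fold higher by the mean and 2 by the stricter rule. Elane, neutrophil elastase, stood at 13.26, 12.16 and 14.07 in WT and 13.63, 12.19 and 14.2 in Selp-/-. Mpo, myeloperoxidase, had a difference of 0.73 ± 0.41 and both arrays numbered 3 lay above the other 4.

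Monocyte and macrophage genes lay higher on both arrays. Adgre1, an adhesion receptor that marks macrophages, stood at 8.13, 8.22 and 11.95 in WT and 7.93, 8.36 and 11.49 in Selp-/-, 11.8-fold higher. Ccl6, a myeloid chemokine, stood at 8.88, 8.75 and 13.27 in WT and 8.76, 8.62 and 12.63 in Selp-/-. Cd68, a lysosomal protein of macrophages, had differences of 1.98 in WT and 2.79 in Selp-/-. Csf1r, the macrophage growth factor receptor, had 0.92 and 1.76, and Lyz2, lysozyme, 0.76 and 2.22. Of 26 genes 8 lay 2-fold higher in both genotypes and 0 lower, beside 1.53% and 0.858% of all genes, and 6 lay higher by the stricter rule, beside 1.26%. The median was 0.52 in WT and 1.27 in Selp-/-. C1qa, a complement gene of tissue macrophages, lay between 8.49 and 8.9 on all arrays, with a mean below the 40th percentile.

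Other genes lay higher on both arrays by similar amounts. Gpnmb, a lysosomal glycoprotein, stood at 8.41, 8.31 and 12.06 in WT and 8.44, 8.34 and 13.19 in Selp-/-. Fabp4 (a fatty acid carrier), Cd36 (a lipid scavenger receptor) and Atp6v0d2 (a proton pump subunit) had differences of 3.92, 3.88 and 3.95, each larger in Selp-/- than in WT. Anpep and C3ar1, an aminopeptidase and the C3a receptor, had 3.57 and 3.84. Slc7a11, the cystine carrier, stood at 8.01, 8.18 and 11.35 in WT and 7.91, 7.82 and 11.45 in Selp-/-.

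Secreted signals lay higher with the granule genes. Of 34 chemokines and cytokines 16 lay 2-fold higher in both genotypes and 1 lower (Angpt1), beside 1.53% and 0.858% of all genes, with a median of 1.21. Ccl3, a chemokine of activated myeloid cells, stood at 10.43, 10.22 and 13.5 in WT and 9.7, 10.37 and 12.7 in Selp-/-. Ccl22 had differences of 3.34 in WT and 1.8 in Selp-/-, and Tnf had 1.76 and 1.11. Among 27 chemokine and chemoattractant receptors 6 lay 2-fold higher (C3ar1, C5ar1, Ccr1, Ccr2, Ccr7 and Cxcr2) and 0 lower. Of 29 myeloid transcription factors 6 lay 2-fold higher, among them Id2 (2.37), Bhlhe40 (1.93) and Tfec (1.73). Spi1, the myeloid master factor PU.1, and Cebpa had 0.6 ± 0.12 and 1.11 ± 0.15, with both arrays numbered 3 above the others.

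Lymphoid and T cell genes gave no common direction. Of 22 T, NK and innate lymphoid genes 3 lay higher (Gzmb, Il2ra and Il7r) and 1 lower (Gata3), beside 1.53% and 0.858% of all genes. The median was -0.04, or 0.162 without normalization, and Cd3e, which defines T cells, lay between 9.24 and 9.49 on all arrays. The B lymphoid list had a median of -0.45, with Dntt lower and Il7r higher. Without Selp-/- 3 that median was -0.205, and without normalization -0.143. Pax5 and Cd79a, which define B cells, overlapped between the groups. Stromal genes had a median of 0.15, with Lpl, lipoprotein lipase, which macrophages also make, the only one of 16 past 2-fold in both.

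Erythroid genes lay lower, for most of the list mainly against arrays numbered 1. Car1, the red cell carbonic anhydrase, stood at 14.01, 12.08 and 9.08 in WT and 13.95, 11.91 and 9.14 in Selp-/-. Rhag, a red cell membrane protein, stood at 10.35, 8.31 and 7.41 in WT and 10.58, 7.77 and 7.31 in Selp-/-, so arrays numbered 2 lay nearer to arrays numbered 3. The list median over 18 genes was -1.0 against WT 1 and -0.12 against WT 2, and -1.24 and -0.24 in Selp-/-. By the mean 4 genes lay 2-fold lower (Car1, Car2, Ermap and Rhag) and by the stricter rule 2 (Car1 and Car2), beside 0.858% and 0.562% of all genes. Klf1, the red cell master factor, overlapped between the groups. Pf4, a platelet chemokine, stood at 11.26, 9.08 and 12.47 in WT and 11.39, 9.69 and 11.72 in Selp-/-, so that Selp-/- 3 lay near Selp-/- 1. Ppbp, another, stood at 10.24, 8.59 and 12.85 in WT and 10.72, 8.79 and 11.84 in Selp-/-. Thbs1, which platelets and macrophages make, lay higher by 2.5 ± 0.09. Of 22 megakaryocyte genes 4 lay 2-fold higher and 1 lower (Mmrn1), beside 1.53% and 0.858% of all genes, and 2 (Ppbp and Thbs1) lay higher by the stricter rule. The median was 0.77 in WT and 0.14 in Selp-/-.

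**Figure D4:**
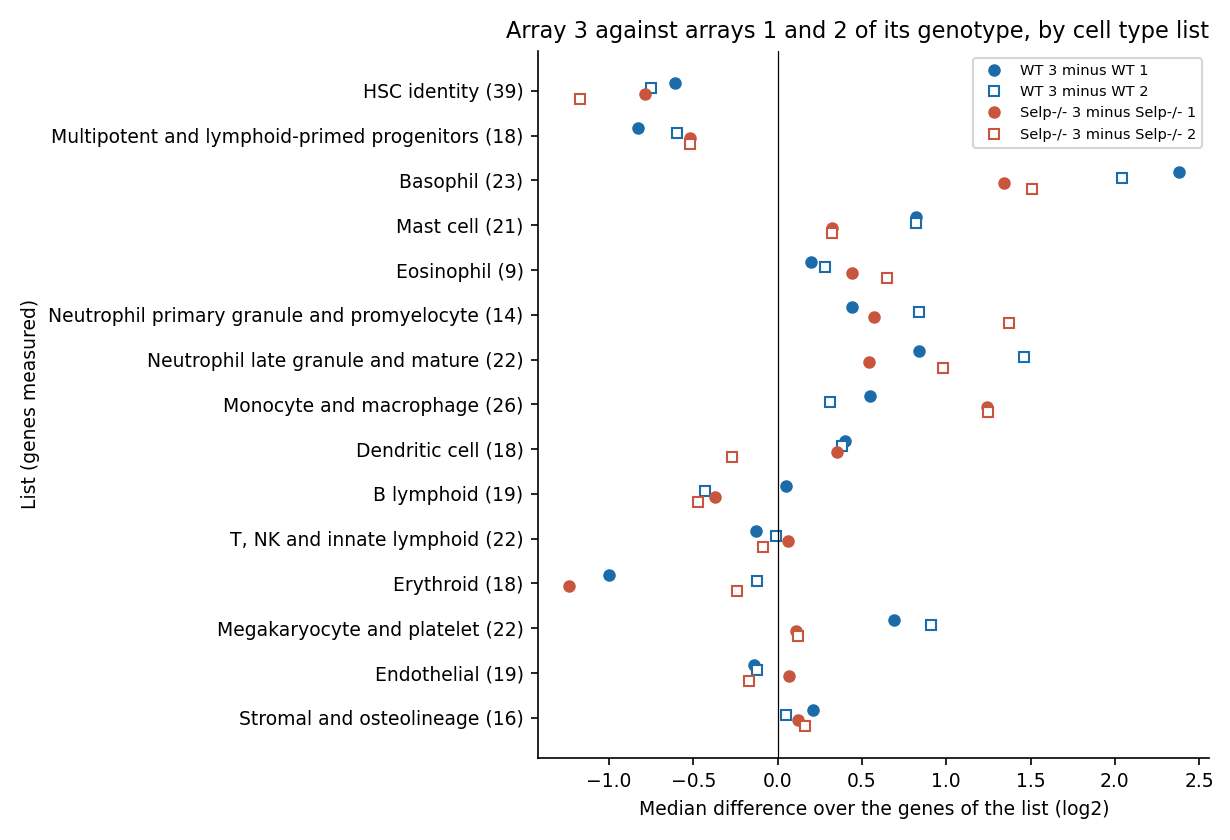
Median difference over the genes of each of 15 cell type lists (log2, x axis) between array 3 and array 1 (filled circles) or array 2 (open squares) of the same genotype; WT in blue, Selp-/- in red. The basophil list lies at 1.34 to 2.38 in all 4 comparisons, while the erythroid list lies at -1.0 and -1.24 against arrays 1 and at -0.12 and -0.24 against arrays 2.

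Surface proteins used to sort stem cells moved both ways, with 4 of 16 genes 2-fold lower in both genotypes (Cd27, Cd34, Flt3 and Kit) and 5 higher (Cd9, Fcgr2b, Fcgr3, Il7r and Thy1). The shares over all genes were 0.858% lower and 1.53% higher. Thy1, low on mouse HSC and high on T cells, stood at 9.41, 9.52 and 12.33 in WT and 9.51, 9.99 and 11.3 in Selp-/-. Of 14 lineage antigens used for depletion, 3 lay 2-fold higher (Adgre1, Il7r and Itgax) and 0 lower, beside 1.53% and 0.858% of all genes. Itgam, the CD11b antigen of myeloid cells, had a difference of 1.53 in WT and 0.96 in Selp-/-.

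Signalling and effector lists lay above the median of all genes by smaller amounts. The median was 0.42 over 28 genes of Toll-like and lectin receptors, with 6 past 2-fold in both genotypes, among them the fungal lectin Clec7a (2.3) and Tlr13 (2.24). It was 0.48 over 26 NF-kB genes, 0.31 over 20 genes of eicosanoid and histamine synthesis and 0.25 over 30 early response genes, with 5, 4 and 3 genes 2-fold higher. For every count in this paragraph the shares over all genes were 1.53% higher and 0.858% lower. Alox5, which starts leukotriene synthesis, stood at 9.07, 8.71 and 11.78 in WT and 9.0, 8.7 and 10.95 in Selp-/-. Ptgs2, the inducible cyclooxygenase, had a difference of 1.19 ± 0.1. Of 27 integrins and selectins 2 lay 2-fold higher, Itgax (1.05) and Itgb2 (1.72), and the median was 0.32. The 38 growth factor and cytokine receptors had a median of 0.18, with 5 higher and 2 lower, and the eosinophil and dendritic cell lists had 0.44 and 0.2. Epx, eosinophil peroxidase, had a difference of 2.3 ± 0.09.

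Reference and proliferation genes differed less. Actb lay between 14.4 and 14.49 on all arrays, and Ptprc, the leukocyte antigen CD45, between 11.21 and 11.65. Quantile normalization gives every array the same set of levels, so the narrow range of a gene as bright as Actb is no independent check. The 31 S phase genes had a median of -0.19, which turned to 0.040 without normalization. The 33 genes of G2 and mitosis had 0.03, or -0.114 without Selp-/- 2 and -0.055 without WT 2. No gene of either list lay 2-fold apart in both genotypes, beside 1.53% higher and 0.858% lower of all genes. For lists of this size that is near the shares of all genes. The 38 cytosolic ribosomal protein genes had a median of -0.15, which turned to 0.04 without normalization. The 50 oxidative phosphorylation genes had a median of 0.18. The medians of 23 survival genes, 20 cell cycle inhibitors and 18 imprinted growth genes were 0.25, 0.07 and 0.04. The survival median was 0.158 without WT 3. The inhibitor median turned to -0.093 without WT 3 and to -0.047 after the 40th percentile filter, and the imprinted median to -0.035 without Selp-/- 1 and to -0.122 after that filter. Glycolysis differed more, with a median of 0.55 over 22 genes. Hk3 lay 2-fold higher in both genotypes (1.3) and Ldhb lower (-1.28), beside 1.53% and 0.858% of all genes.

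The difference between the genotypes in this contrast was tested, since the split did not fix it. An interaction term of genotype with number 3 in limma, two-sided and adjusted over all 28815 probe sets by Benjamini-Hochberg, called 0 probe sets (0.0%), with 1132 at an unadjusted p under 0.05 and a lowest adjusted p of 0.153. The fit with the replicate block also called 0. With 1 array numbered 3 in each genotype, the spread came only from arrays 1 against 2. Calls appeared in some other settings, given below, most of them without normalization. That setting shifts the median of all probe sets by 0.296 in WT and by 0.078 in Selp-/-. What part of its calls follows from this unequal shift was not tested. With so few arrays the 0 is not a sign that the genotypes were alike, and those calls are not a sign that they differed.

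The genes nearest to a call, Ccr9 aside, shared the direction or were near 0 in 1 genotype. Ccl24, an eosinophil-attracting chemokine, stood at 8.22, 8.18 and 11.02 in WT and 8.57, 8.28 and 8.68 in Selp-/- (limma adjusted p = 0.153). Cldn11, a tight junction protein, had differences of 2.54 in WT and 0.52 in Selp-/-. Cdh17, Ccn3 and Ecm1, proteins of adhesion and matrix, lay higher on both arrays with 4.24 against 2.2, 4.23 against 2.17 and 3.13 against 1.46. Ccdc80, a matrix protein, had 1.97 in WT and 0.01 in Selp-/-.

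Interferon-induced genes leaned the other way. Ifit3 stood at 8.61, 8.78 and 9.1 in WT and 8.72, 8.56 and 11.49 in Selp-/-, and Ifi202b at 6.82, 6.51 and 6.71 in WT and 7.18, 7.19 and 9.68 in Selp-/- (limma adjusted p = 0.153 for each). Over 32 interferon response genes the median was 0.34 in WT and 0.79 in Selp-/-. Of these genes 2 (Irf7 and Usp18) lay 2-fold higher in both, beside 1.53% of all genes. Tlr7 and Tlr8, sensors of RNA, had differences of 0.46 and 1.67 in WT and 1.85 and 3.36 in Selp-/-. MHC class II genes had a median of 0.65 in WT and -0.17 in Selp-/-. Cd74, the invariant chain, stood at 11.99, 12.62 and 13.09 in WT and 12.56, 12.74 and 12.26 in Selp-/-, so array 3 was the highest in WT and the lowest in Selp-/-.

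Xist, the RNA of the inactive X chromosome, stood at 12.85, 13.6 and 12.08 in WT and 13.23, 13.2 and 8.0 in Selp-/- (limma adjusted p = 0.153). Selp-/- 3 lay far below the other arrays, with a deposited intensity of 398 against 5010 to 10757 elsewhere. The Y-linked Eif2s3y stood at 8.82, 6.44 and 8.68 in WT and 6.44, 7.77 and 9.59 in Selp-/-. Kdm5d stood at 8.61, 7.28 and 8.62 in WT and 7.24, 8.6 and 9.16 in Selp-/-. Uty stood at 8.28, 6.83 and 8.5 in WT and 7.14, 7.98 and 8.89 in Selp-/-. Both arrays numbered 3 and WT 1 were thus among the higher arrays for these 3 dim genes, and WT 2 and Selp-/- 1 the lowest. The labels do not state the sex of the mice, and the part of sex in the values above was not tested.

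**Figure D5:**
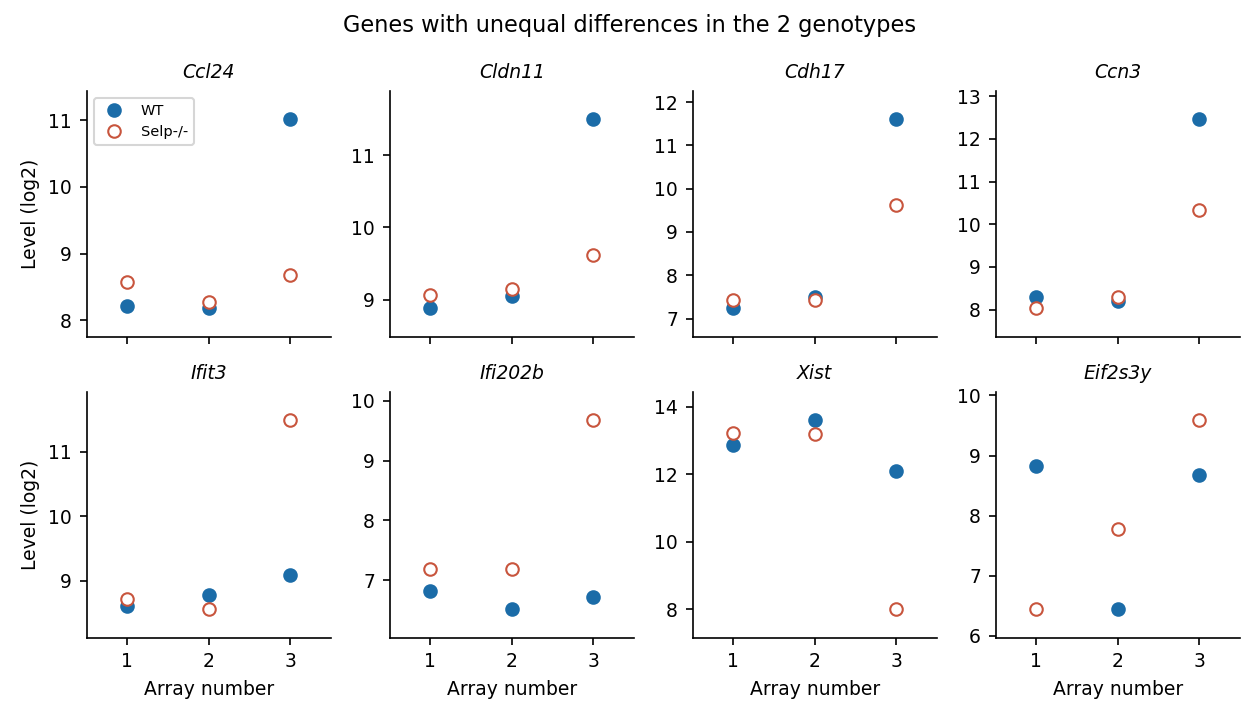
Normalized log2 level of 8 genes, y axis, on arrays 1, 2 and 3, x axis; filled points are WT and open points Selp-/-, 1 array each. Ccl24, Cldn11, Cdh17 and Ccn3 are higher on WT 3 than on Selp-/- 3, Ifit3 and Ifi202b higher on Selp-/- 3, and Xist is lowest on Selp-/- 3, at 8.0.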

How the data were processed

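The data were deposited by the authors as linear probe set intensities of an Affymetrix mouse whole-transcript array, 28815 per array. The submitters' processing notes name MAS5 without a version. RNA was amplified and biotin-labelled, per the labels' protocols. All intensities were multiples of 0.5 with unequal medians, so no common scaling was visible, and the settings of MAS5 are not given in the sources used here. The number of arrays, 6, sets the precision. From the intensities were computed a normexp background correction (offset 50), log2 and quantile normalization, in limma 3.58.1 under R 4.3.3. The offset shrinks differences of dim probe sets. A fit with genotype as covariate gave sizes and SE, and an interaction term the only test (trended eBayes, threshold 0.05); that script was tested on simulated data. Since replicates may be technical, its p-values speak only of the spread among these 6 samples.

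A single gene symbol was given for 21780 probe sets (21689 matched to RefSeq GRCm38.p6), several for 1605 and none for 5430. Genes were named by a rule: the 6 markers Hlf, Mecom, Mcpt8, Cpa3, Cxcr2 and Adgre1; the 25 higher and 25 lower genes with the largest value of the smaller of the 2 genotypes' differences; up to 5 of each of 41 lists by size; the 10 of smallest interaction p; sex-linked genes; Actb, Gapdh and Ptprc (Gapdh had no probe set of its own). Other named genes, among them Runx1, Gata2, Tal1, Procr, Slamf1, Vwf, Meg3, Socs2, Kdr, Cdh5, Calcrl, Zfp521, Mitf, Slc18a2, Il13, Mpo, Ly6g, Csf1r, Lyz2, C1qa, Spi1, Cebpa, Cd3e, Pax5, Cd79a, Klf1, Tyrobp, Tlr7 and Cd74, were chosen after their values were seen. Members and lists were chosen with earlier results of these data known. Same-numbered arrays of the 2 genotypes share a number in the labels, and their deviations from the genotype means correlated at 0.28, 0.41 and 0.76 for numbers 1, 2 and 3. Unmatched numbers also correlated, WT 2 with Selp-/- 1 at 0.5 and WT 1 with Selp-/- 2 at 0.31, so numbers 1 and 2 are not told apart by this check. Each same-numbered pair was above 0.1, and the fit with the replicate block took the numbers to pair them. Because both arrays numbered 3 stand apart, arrays 1 and 2 deviate alike in both genotypes whatever their pairing. The pairing in that fit therefore rests on the labels alone. Alternatives were log2(value + 16) with no normalization or with median centring, quantile normalization without normexp, a filter at the 40th percentile of mean level (17289 probe sets left), the mean of all probe sets of a gene, each array left out, the block, and eBayes without a trend.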

Additional observations from a re-analysis of the deposited data

Results flagged for a closer look

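The 3 probe sets at least 2-fold apart in opposite directions in the 2 genotypes are given here because array 3 moved away from arrays 1 and 2 one way in WT and the other way in Selp-/-. Ccr9, a chemokine receptor of lymphoid and dendritic cells, stood at 9.78, 9.54 and 8.55 in WT and 9.12, 9.29 and 10.26 in Selp-/-, differences of -1.11 and 1.06 (limma interaction, adjusted p = 0.251). Igkv6-20, an immunoglobulin light chain segment, had -2.09 in WT and 1.15 in Selp-/-, with levels of 13.05 and 11.32 on WT 1 and WT 2 and 9.68 and 10.99 on Selp-/- 1 and 2 (limma interaction, adjusted p = 1.0). Probe set 10538875, which has no gene symbol, had 1.19 and -1.65 (limma interaction, adjusted p = 0.377). None of the 3 passed the threshold of 0.05.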

How the results depend on the processing

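None of the 150 named genes that lay 2-fold apart in both genotypes reversed under the 3 other scalings or with any 1 array left out, and all 305 higher and 171 lower genes kept their direction under each of the 3 other scalings. These genes were picked by 2-fold in each genotype, so leaving out an array numbered 3 could not reverse them. A reversal under another scaling needed a change of at least 2-fold. The kept directions are therefore no independent check. Sizes depended more on the background correction: without normexp (quantile normalization alone) 240 of the 305 and 102 of the 171 stayed past 2-fold in both genotypes, with median centring 248 and 99, and with no normalization 290 and 49. With no normalization the probe set counts were 1027 higher and 93 lower in WT 3, 196 lower in Selp-/- 3, 78 lower in both, 10600 above and 1446 below all other arrays. With median centring they were 214 lower in WT 3, 250 lower in Selp-/- 3 and 151 in both, and without normexp 227, 240 and 155. The split of higher against lower was 66.5% higher with median centring and 65.2% without normexp. With 1 array left out the lower count in WT 3 ran from 422 without WT 2 to 677 without WT 1. The median of the HSC list was -0.518 with no normalization. The basophil median was 1.858 with no normalization, 1.652 with median centring, 1.647 without normexp and 1.53 after the 40th percentile filter, and with 1 array left out 1.57 to 2.21. The mast cell median was 0.704, 0.499 and 0.505 under the same 3 scalings, 0.498 with all probe sets averaged, and 0.358 to 0.791 with 1 array left out. The monocyte median was 1.09 with no normalization, 1.027 after the filter and 0.524 to 1.266 with 1 array left out. The interaction called 55 probe sets with no normalization, 3 with median centring, 8 without normexp, 9 after the filter and 0 to 1 with 1 array left out. The replicate block called 0, as did eBayes without a trend, and the block was run for this test alone. The cause of these shifts was not tested. An interaction could not be fitted without an array numbered 3.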

Other observations

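Gene families outside the lists were looked at after values were seen, so their counts are descriptions only. Cholesterol synthesis genes lay higher together: of 19 measured, 8 lay 2-fold higher in both genotypes and in 18 both arrays numbered 3 lay above the other 4, with a median of 1.0, beside 1.53% and 19.1% of all genes. Fdps, which makes farnesyl diphosphate, stood at 10.01, 9.52 and 12.24 in WT and 10.13, 10.16 and 12.13 in Selp-/-. Msmo1, a sterol oxidase, stood at 9.72, 9.65 and 11.4 in WT and 9.74, 9.78 and 11.42 in Selp-/-, and Idi1 and Sc5d had differences of 1.71 and 1.4. Lysosomal genes were alike, with 22 of 27 above the other arrays, 5 past 2-fold (Asah1, Cd63, Gla, Grn and Hexa) and a median of 0.74. The median over 24 subunits of the vacuolar proton pump and its partners was 0.64, with Atp6v0d2, Atp6v0a1 and Atp6ap2 past 2-fold. All 4 genes of the Cd200 receptor family lay 2-fold higher (1.82 to 4.17), as did 7 of 19 Ms4a genes and 8 of 33 Clec genes, whose median was 0.1. Among matrix metalloproteinases Mmp12 and Mmp13 had differences of 2.23 and 2.7, and their inhibitor Timp1 had 2.63.

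On the lower side, 7 of 8 Gimap genes lay below all other arrays on both arrays numbered 3, beside 18.8% of all genes. These genes code for GTPases of lymphocytes and early blood cells. Only 2 of the 8, Gimap5 and Gimap6, lay 2-fold lower in both genotypes, beside 0.858% of all genes, and 4 of the 8 were dim. Gimap6 stood at 11.06, 11.01 and 9.11 in WT and 10.76, 10.98 and 9.13 in Selp-/-. Immunoglobulin transcripts had a median of -1.25 over 13 genes, with 6 lower by 2-fold in both genotypes, beside 0.858% of all genes. Among the 6 were Ighm (-1.8) and Jchain (-2.9). That median was -1.98 in WT and -0.83 in Selp-/-, and -0.8 without Selp-/- 1. They varied widely between arrays 1 and 2, as Igha did with 14.36 and 11.2 on Selp-/- 1 and 2, and immunoglobulin segments share sequence, so single segments are uncertain. Aldh1a1 and Dpp4, an aldehyde dehydrogenase and a peptidase of the cell surface, had differences of -1.96 and -1.63. Each family median named here kept its sign under the 3 other scalings.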
